A study of Mus musculus with 3 samples.

Results

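The genes described here encode matrix proteases and their inhibitors, and were taken as every symbol in the deposited gene list that begins with Mmp, Timp, Adamts, Adamtsl or Adam followed by its number. The list held 83 of 31053 genes, namely 22 *Mmp*, 4 *Timp*, 19 *Adamts*, 5 *Adamtsl* and 33 *Adam* genes. The rule reads symbols only. In all barcodes together 11 of the 83 had 0 unique molecular identifiers (UMIs, each standing for 1 captured transcript) and another 19 had 1 to 49 UMIs.

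Matrix metalloproteinases (MMPs) are zinc enzymes that cut collagens and other matrix proteins, and the ADAMTS enzymes cut proteoglycans such as aggrecan and versican or trim procollagens. ADAM proteins sit in the membrane and release growth factors, cytokines and receptors from the cell surface, and the tissue inhibitors of metalloproteinases (TIMPs) block most of these enzymes. In endochondral ossification, *Mmp13*, *Mmp9* and *Mmp14* are known for the removal of cartilage matrix as bone replaces it, and *Adamts5* and *Adamts4* for the cutting of aggrecan.

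The data were single-cell RNA counts from implants in female CD-1 mice aged 6 to 8 weeks, taken at day 5 after subcutaneous injection of Matrigel, a basement membrane gel. The Matrigel-only mice received the gel alone and no palovarotene, and their treatment label reads nothing (Matrigel only). The Vehicle mice received gel with rhBMP2 (human bone morphogenetic protein 2 made in culture, known to start ectopic bone by way of cartilage) and oral corn oil/DMSO. The Palo mice received gel with rhBMP2 and palovarotene, a retinoic acid receptor gamma agonist, at 4 mg/kg. Cells of each group made up 1 library, so that the groups could be compared by size only, without replicates or tests. Vehicle and Matrigel-only differed in rhBMP2 and, by the treatment labels, in the oral vehicle, which cannot be told apart.

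The libraries held 44252421 (Matrigel-only), 46317250 (Vehicle) and 46901673 (Palo) UMIs. In that order 8728, 5478 and 7297 cells passed the quality limits, and 8 to 17 passing barcodes were shared between any pair of libraries. Stromal cells were those with at least 1% of UMIs from *Col1a1*, *Col1a2*, *Col3a1*, *Dcn* and *Lum*, and numbered 2085, 1373 and 1184. Macrophages, with a UMI of *Csf1r* or *C1qa* and outside the stromal and neutrophil classes, numbered 5811, 3247 and 5660, and neutrophils 2, 59 and 10. All 12 stromal markers were above 0 in stromal cells and all 10 macrophage markers in macrophages of every library, while the markers of neutrophils were 9, 10 and 9 of 10. The stromal markers were also all above 0 in macrophages, and the macrophage markers in stromal cells. Each list holds the genes that define its class, so these counts do not test the classes. The median stromal cell held 9082, 17114 and 12955 UMIs, and the median macrophage 3091, 3655 and 4254.5. Levels are given in CPM (counts of a gene summed over the cells of a class, divided by all UMIs of the class and scaled to 1e+06), with exact Poisson 95% intervals that cover counting error only. CPM values were not divided by transcript length. The stromal markers summed to 84829, 61933 and 95024 CPM in stromal cells and to 605, 680 and 403 CPM in macrophages. Those of macrophages summed to 26969, 19018 and 24430 CPM in macrophages and to 1073, 499 and 745 CPM in stromal cells. Levels are compared between libraries, and shares and sums over several genes are shares and sums of UMIs. Shares of cells with a UMI were computed after every cell was thinned to 3100 UMIs (stromal) or 1400 UMIs (macrophages), leaving out any cell below that depth.

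Of the 22 *Mmp* genes, 9 lie together on chromosome 9 (mm10, positions 7272514 to 7699585, a span of 427 kb), in the order *Mmp13*, *Mmp12*, *Mmp1b*, *Mmp3*, *Mmp10*, *Mmp8*, *Mmp27*, *Mmp20* and *Mmp7*. The ends of *Mmp12* and *Mmp1b*, which lie on opposite strands, overlap. Neighbours in this array had their UMIs or their highest level in different cell classes. *Mmp13* (a collagenase, positions 7272514 to 7283331) had 601 of its 705 Vehicle UMIs in stromal cells, whereas macrophages held 19 of its 24 UMIs in Matrigel-only and 53 of 73 in Palo. *Mmp12* (macrophage metalloelastase, positions 7344381 to 7369499) had 87.2% of its UMIs in macrophages in Matrigel-only, 94.6% in Vehicle against 91.9% in Palo mice. *Mmp3* (stromelysin-1, positions 7445822 to 7455975) had 98.5%, 99.03% and 98.1% in stromal cells. *Mmp8* (neutrophil collagenase, positions 7558456 to 7568485) was sparse, with 45 UMIs in the Vehicle library, of which 13 were in the 59 neutrophils and 22 in the 3247 macrophages. Its level in Vehicle neutrophils was 302 CPM (161 to 516). *Mmp27* had 641 UMIs in all barcodes. The remaining genes of the array were at low counts, with *Mmp10* at 5 UMIs, *Mmp1b* at 1, and *Mmp7* and *Mmp20* at 0 in all barcodes.

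The promoters of these 4 neighbours are shown because their genes had their highest level in 3 different cell classes. Each runs from 250 bases before to 50 bases after a RefSeq transcription start (GRCm38.p6, plus strand), and capitals mark the AP-1 motif TGAGTCA or its reverse complement TGACTCA. *Mmp12* has 2 listed starts. The intervals are chr9:7272264-7272563 for *Mmp13*, chr9:7344147-7344446 and chr9:7347124-7347423 for *Mmp12*, chr9:7445572-7445871 for *Mmp3* and chr9:7558179-7558478 for *Mmp8*.
Mmp13: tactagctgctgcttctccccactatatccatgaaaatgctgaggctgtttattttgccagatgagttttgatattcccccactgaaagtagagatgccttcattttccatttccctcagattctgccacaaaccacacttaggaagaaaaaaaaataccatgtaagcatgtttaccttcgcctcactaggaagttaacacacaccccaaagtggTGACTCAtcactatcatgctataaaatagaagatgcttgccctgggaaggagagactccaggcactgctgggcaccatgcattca
Mmp12 start 1: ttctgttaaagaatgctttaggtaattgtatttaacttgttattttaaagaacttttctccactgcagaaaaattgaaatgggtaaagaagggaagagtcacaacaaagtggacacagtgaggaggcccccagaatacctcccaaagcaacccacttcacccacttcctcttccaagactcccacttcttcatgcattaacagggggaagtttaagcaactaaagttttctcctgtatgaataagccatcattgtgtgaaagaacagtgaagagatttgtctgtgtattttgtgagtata
Mmp12 start 2: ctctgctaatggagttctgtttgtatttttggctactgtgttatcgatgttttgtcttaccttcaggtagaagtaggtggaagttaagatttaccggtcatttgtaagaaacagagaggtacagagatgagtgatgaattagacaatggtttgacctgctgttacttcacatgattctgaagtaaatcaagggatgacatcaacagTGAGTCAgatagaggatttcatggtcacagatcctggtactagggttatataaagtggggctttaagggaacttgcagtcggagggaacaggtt
Mmp3: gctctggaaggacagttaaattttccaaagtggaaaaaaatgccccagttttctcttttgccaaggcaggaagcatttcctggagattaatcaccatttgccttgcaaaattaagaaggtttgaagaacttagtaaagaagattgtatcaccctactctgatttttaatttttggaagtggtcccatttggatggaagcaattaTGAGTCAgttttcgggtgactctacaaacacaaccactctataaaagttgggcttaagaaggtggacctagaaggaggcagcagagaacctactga
Mmp8: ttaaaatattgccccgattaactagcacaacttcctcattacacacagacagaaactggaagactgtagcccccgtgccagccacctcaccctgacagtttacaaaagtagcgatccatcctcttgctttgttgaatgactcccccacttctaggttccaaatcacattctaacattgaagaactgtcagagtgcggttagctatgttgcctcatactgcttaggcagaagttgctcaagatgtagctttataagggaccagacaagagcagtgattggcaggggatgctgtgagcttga
The motif begins at position -35 from the start of *Mmp13*, -44 from the second start of *Mmp12* and -46 from that of *Mmp3*, and these letters do not occur in the *Mmp8* window. A promoter was listed for 52 of the 83 members, and 9 of the 52 (17.3%) held the AP-1 motif on either strand, beside 5.95% of the 27025 genes with a listed promoter. Apart from the genes of the array, which gave 6 of the 9 (*Mmp1b*, *Mmp3*, *Mmp7*, *Mmp10*, *Mmp12* and *Mmp13*), the motif was in *Adam1b*, *Adam19* and *Adam29*. The RUNX letters ACCACA occurred on either strand in 23.1% of the members and 18.9% of genes, and the hypoxia letters ACGTG in 21.2% and 21.8%. Repeats of the retinoid half-site AGGTCA or GGGTCA at spacings of 1, 2 or 5 bases were found in 0 of the 52 members and in 0.229% of genes. A match is a description of the letters, and no binding was measured here.

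In stromal cells 40 of the 83 members reached a mean of 5 CPM over the 3 libraries and were compared. A member is called higher or lower where the ratio of CPM, with 5 CPM added to both sides, was at least 2-fold. In Vehicle against Matrigel-only, 17 of the 40 were lower, where 7.09% of 10311 genes were lower by the same rule, and 2 were higher, where 3.35% of genes were higher. The median log2 ratio was -0.77 over the members and -0.04 over all genes. In Palo against Vehicle, 11 members were higher (4.47% of all genes) and 1 was lower (3.28%), with a median of 0.54 beside 0.01 over all genes. All 11 members that were higher in Palo were among the 17 that were lower in Vehicle, but both comparisons use the same Vehicle library. Palo against Matrigel-only, which does not use it, gave 2 higher (0.272% of all genes) and 2 lower (0.873%) members, with a median of -0.20 beside -0.03. *Mmp9* and *Mmp12* were the higher ones, and *Mmp3* and *Adamts16* the lower ones. The 36 other members lay between -0.89 (*Adamts15*) and 0.71 (*Timp1*) in that comparison.

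**Figure D1:**
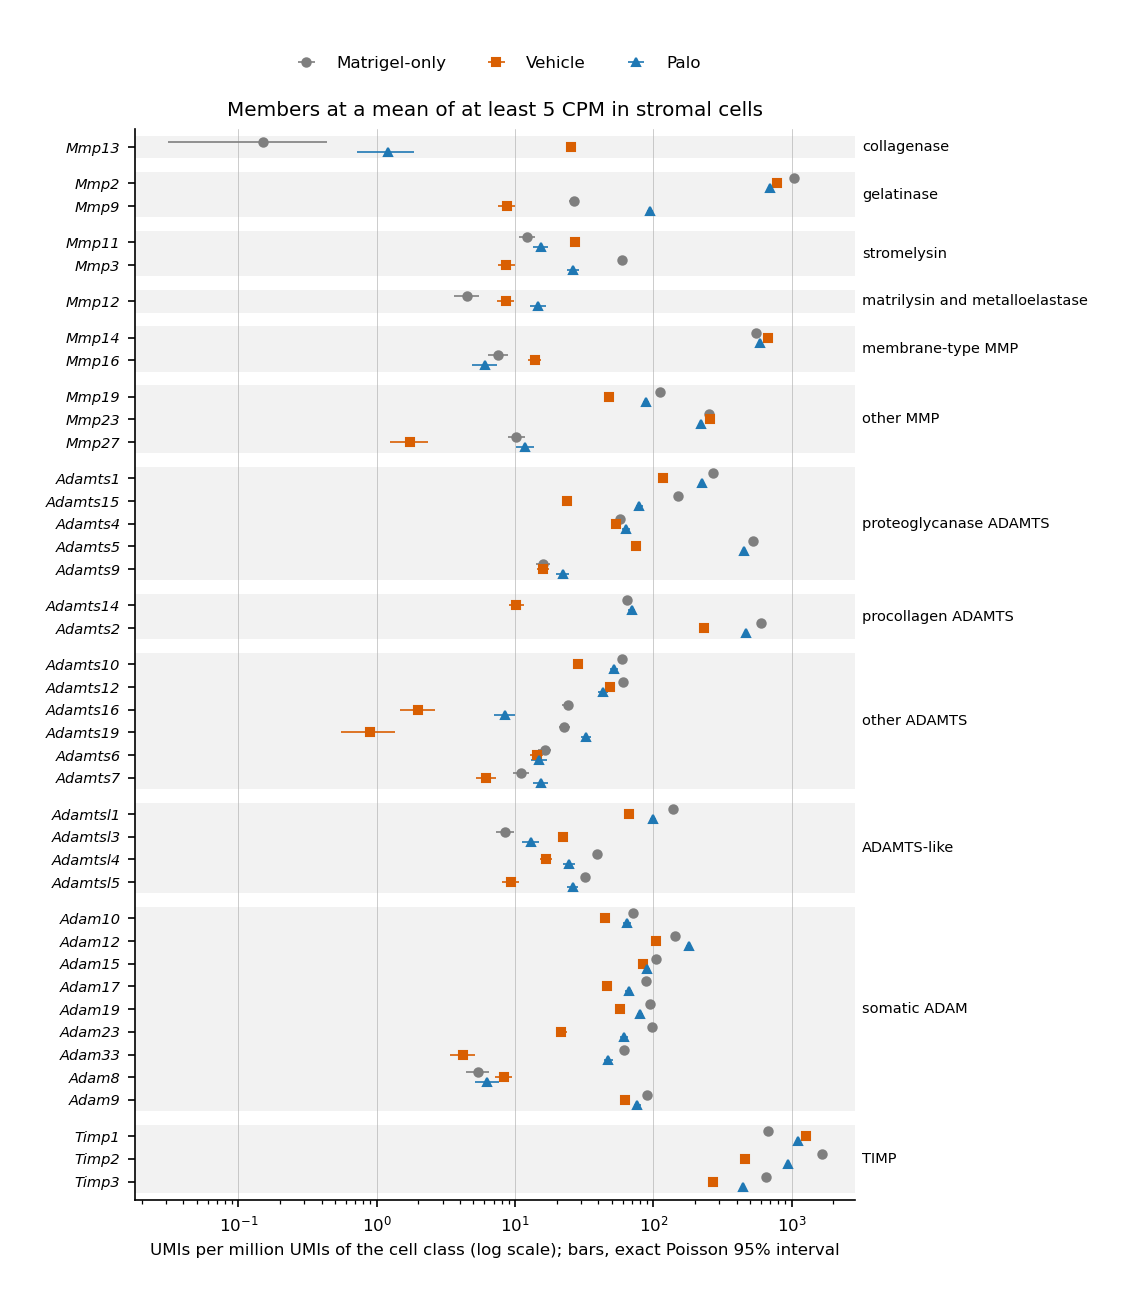
Level of the 40 members compared in stromal cells, in CPM of all stromal UMIs on a log axis, grouped by role, with 1 point for each library and exact Poisson 95% intervals. The Vehicle squares lie left of both other libraries for *Adamts5*, *Adam33* and *Adamts19* and right of them for *Mmp13*, *Mmp11* and *Timp1*.

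*Mmp13* was the only collagenase of 3 to reach the minimum level in stromal cells. Its level was 0.1496 CPM in the Matrigel-only library (3 UMIs), 25.5 CPM in the Vehicle library (601 UMIs) and 1.20 CPM in the Palo library (19 UMIs). Only the Vehicle library held the gene at more than a trace, and the gene reached the minimum mean through that library alone. The Vehicle level was 170-fold that of Matrigel-only (58.0 to 828, counting error only) and 21.2-fold that of Palo (13.5 to 35.5). The transcripts lay in few cells, since 69 of 1373 Vehicle stromal cells had a UMI and 139 of the 601 UMIs came from 1 cell. Without the 10 cells richest in *Mmp13*, a step added after the values were seen, the Vehicle level was 7.94 CPM. Thinned to one depth, 2.52% of Vehicle stromal cells had a UMI (1.74 to 3.52), against 0.170% in Palo. At the same depth 1.45% of Vehicle macrophages had a UMI (0.963 to 2.09), so the share in stromal cells lay little above it.

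The gelatinases cut denatured collagen and type IV collagen, and their 2 members behaved differently. *Mmp2* was 1035, 777 and 701 CPM in the Matrigel-only, Vehicle and Palo stromal cells and differed by less than 2-fold throughout. *Mmp9* was 26.6 CPM in Matrigel-only, 8.69 CPM in Vehicle and 94.9 CPM in Palo stromal cells. It was thus lowest in Vehicle and highest in Palo, 10.9-fold higher in Palo than in Vehicle (9.43 to 12.7) and 3.57-fold higher than in Matrigel-only (3.23 to 3.95). The share of thinned stromal cells with an *Mmp9* UMI was 4.82%, 1.80% and 14.0%, in the same order of libraries. The Vehicle share lay within the interval of that in the 59 Vehicle T/NK cells deep enough (1.59%, 0.0322 to 8.91). That interval is too wide to set a background level. Of the 205 *Mmp9* UMIs in Vehicle stromal cells 48 came from 1 cell, and 15 cells had at least 3. At the same depth 1.27% of Palo macrophages had a UMI. In the Palo library 290 of 1184 stromal cells had a UMI and 158 had at least 3, and without its 10 richest cells the level was 74.0 CPM. Stromal cells without a UMI of *Csf1r* or *C1qa* gave 25.7, 9.50 and 92.8 CPM, so that the order was the same in cells lacking both macrophage transcripts.

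The stromelysins degrade proteoglycans and activate other MMPs. *Mmp3* was 59.6 CPM in Matrigel-only, 8.65 CPM in Vehicle and 26.3 CPM in Palo stromal cells. It was 6.89-fold lower in Vehicle than in Matrigel-only (5.94 to 8.04), and the Palo level lay between the other 2, 2.27-fold below Matrigel-only. The *Mmp3* calls of Palo stayed at 2-fold in 12 of 15 alternatives against Vehicle and in 13 of 15 against Matrigel-only. The Vehicle UMIs of *Mmp3* came from 49 cells, with 62 of 204 UMIs in 1 of them. *Mmp11*, a stromelysin of remodelling stroma, had the opposite order with 12.2, 27.1 and 15.3 CPM, and its log2 ratio with 5 CPM added, 0.90 in Vehicle against Matrigel-only, missed the limit.

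*Mmp14*, the membrane-type MMP that cuts collagen at the cell surface and activates *Mmp2*, was nearly level in stromal cells with 554, 668 and 588 CPM. *Mmp16*, another membrane-type MMP, was 7.58, 13.9 and 6.06 CPM, with a log2 ratio after the addition of 0.59 in Vehicle against Matrigel-only and -0.77 in Palo against Vehicle. *Mmp23* was 253, 255 and 220 CPM. *Mmp19*, an MMP of basement membrane turnover, was 2.35-fold lower in Vehicle, with 112, 47.7 and 88.7 CPM. *Mmp27*, a little-studied MMP of the same chromosome 9 array, was lower still at 10.2, 1.74 and 11.9 CPM. The stromal level of *Mmp12* was low, 4.49, 8.56 and 14.7 CPM, with 87.9% of the Palo UMIs in 10 cells. In stromal cells without *Csf1r* or *C1qa* it was 0.960, 2.07 and 3.68 CPM. The call of *Mmp12* as higher in Palo than in Matrigel-only, at a log2 ratio of 1.05, stayed at 2-fold in 11 of 15 alternatives. It missed the limit without cells of high doublet score and without cells with macrophage markers, and the lowest log2 ratio was 0.36.

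The proteoglycanase group of ADAMTS enzymes, which cut aggrecan and versican, has 7 members, of which 5 were compared in stromal cells. *Adamts5*, known as the main aggrecanase of mouse cartilage, was 522 CPM in Matrigel-only, 74.9 CPM in Vehicle and 452 CPM in Palo. The Vehicle level was 6.98-fold below Matrigel-only (6.63 to 7.34), and Palo was 6.04-fold above Vehicle (5.74 to 6.37) and within 2-fold of Matrigel-only. The transcript also differed in how many cells held it, since 63.0%, 12.8% and 52.8% of thinned stromal cells had a UMI. In macrophages, thinned to the same depth, the share was 1.02%, 0.146% and 0.435%. *Adamts15* followed the same order with 150, 23.7 and 78.9 CPM, 6.35-fold lower in Vehicle than in Matrigel-only. *Adamts1* was 271, 117 and 223 CPM and passed 2-fold only in the first comparison. *Adamts4*, the other well-known aggrecanase, was 57.7, 53.2 and 63.2 CPM and *Adamts9* 15.9, 16.0 and 22.1 CPM, both nearly level. The group thus gave 3 of 5 compared members lower in Vehicle than in Matrigel-only and 2 of 5 higher in Palo than in Vehicle. Of all genes, 7.09% and 4.47% were called in those directions.

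Both compared members of the procollagen N-proteinases, which remove the amino-terminal propeptides of fibrillar collagens, were lower in Vehicle. *Adamts2* was 599, 232 and 464 CPM, 2.58-fold lower in Vehicle, and its log2 ratio of 0.98 in Palo against Vehicle lay just under the limit of 1. *Adamts14* was 64.3, 10.2 and 69.6 CPM, 6.30-fold lower in Vehicle and 6.81-fold higher in Palo than in Vehicle. The third enzyme, *Adamts3*, was under the minimum level, with 32, 57 and 26 UMIs.

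Among the other ADAMTS genes the largest ratios were at low levels. *Adamts19* was 22.6 CPM in Matrigel-only, 0.890 CPM in Vehicle (21 UMIs) and 32.5 CPM in Palo, 25.4-fold lower in Vehicle than in Matrigel-only (16.4 to 41.5). *Adamts16* was 23.9, 1.99 and 8.46 CPM, and was the only ADAMTS gene called lower in Palo than in Matrigel-only. The ratios of *Adamts6*, *Adamts7*, *Adamts10* and *Adamts12*, at 6.15 to 60.8 CPM, missed the limit in every comparison once 5 CPM was added.

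The ADAMTS-like proteins have no protease domain and bind fibrillin and other matrix proteins. *Adamtsl4* (39.2, 16.7 and 24.7 CPM) and *Adamtsl5* (32.2, 9.28 and 26.1 CPM) were lower in Vehicle, and *Adamtsl1* (138, 66.5 and 99.04 CPM) missed the limit at a log2 ratio of -0.996. *Adamtsl3* was the reverse, with 8.48, 22.1 and 13.0 CPM and a ratio just past 2-fold (log2 1.009) in Vehicle against Matrigel-only. Summed over each family, the 19 ADAMTS genes gave 1881, 634 and 1550 CPM, while the 22 MMP genes gave 2078, 1845 and 1770 CPM.

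Of the 9 ADAM genes compared in stromal cells, 2 were lower in Vehicle than in Matrigel-only, beside 7.09% of all genes. *Adam33*, a metalloproteinase of mesenchymal cells, was 61.0, 4.20 and 47.3 CPM, 14.5-fold lower in Vehicle than in Matrigel-only (11.8 to 18.0) and 11.3-fold higher in Palo than in Vehicle (9.13 to 14.0). *Adam23*, a member without protease activity that binds integrins, was 98.3, 21.6 and 61.3 CPM. The other compared ADAMs were under 2-fold in all 3 comparisons. These included the sheddases *Adam10* (70.9, 44.6 and 64.4 CPM) and *Adam17* (88.3, 46.5 and 66.2 CPM), *Adam9* (90.1, 62.5 and 76.3 CPM), *Adam15* (104, 84.2 and 90.01 CPM), *Adam19* (94.1, 56.9 and 80.0 CPM) and *Adam12*, a marker of activated mesenchymal cells (143, 105 and 180 CPM). Each of these 6 had its lowest level in the Vehicle library. *Adam8*, the other compared ADAM, did not, with a UMI in 1.52%, 2.05% and 1.74% of thinned stromal cells.

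The TIMP inhibitors differed between libraries in makeup more than in sum. *Timp1*, an inhibitor known to be induced in injury and inflammation, was 676 CPM in Matrigel-only, 1270 CPM in Vehicle and 1108 CPM in Palo stromal cells, a log2 ratio of 0.91 in Vehicle against Matrigel-only. *Timp2*, which also takes part in the activation of pro-*Mmp2* by *Mmp14*, was 1643, 457 and 934 CPM, 3.60-fold lower in Vehicle than in Matrigel-only (3.52 to 3.68). The call of *Timp2* as higher in Palo than in Vehicle, at a log2 ratio of 1.02, stayed at 2-fold in 9 of 15 alternatives. The lowest log2 ratio among them was 0.49. *Timp3*, the inhibitor bound to matrix and the main TIMP that blocks ADAMTS enzymes, was 646, 270 and 445 CPM, 2.39-fold lower in Vehicle. *Timp4* had 6 UMIs in all barcodes. All *Timp* UMIs together came to 2965, 1998 and 2487 CPM. *Timp1* made up 22.8% of them in Matrigel-only (22.4 to 23.1), 63.6% in Vehicle (63.2 to 64.0) and 44.6% in Palo (44.1 to 45.0), while *Timp2* made up 55.4%, 22.9% and 37.5%.

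**Figure D2:**
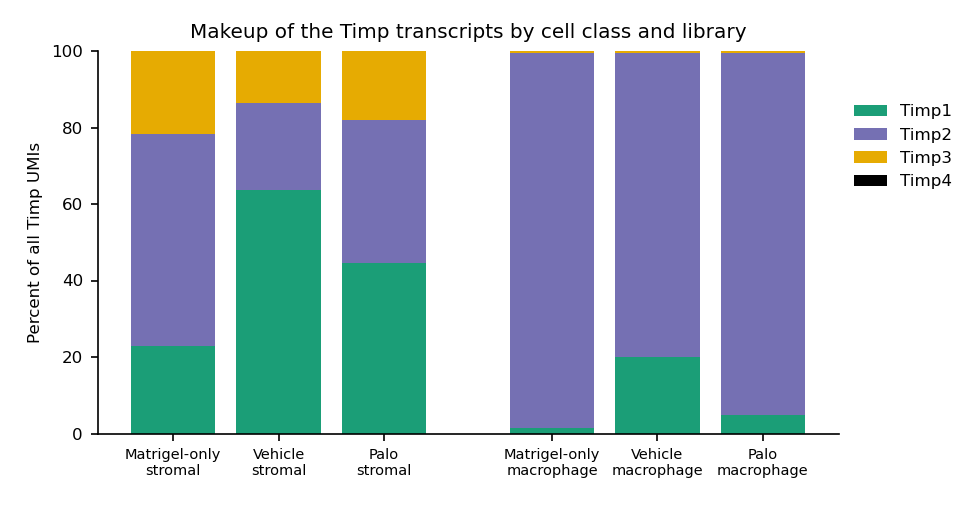
Percent of all *Timp* UMIs that came from each *Timp* gene (stacked colours) in stromal cells and macrophages of the 3 libraries. *Timp1* made up 63.6% in Vehicle stromal cells, and *Timp2* 79.3% to 98.0% in the macrophages.

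The libraries differed in which stromal cells they held, and the part of this in the levels was not tested. Cells with at least 0.2% of UMIs from 7 cartilage genes (*Acan*, *Col2a1*, *Col9a1*, *Col9a2*, *Col9a3*, *Matn3* and *Hapln1*) numbered 445 in Vehicle and 0 in either of the other libraries. In all stromal cells the sum of these genes was 1.60, 3550 and 3.85 CPM, with *Col9a1* at 0 in both other libraries, *Hapln1* at 0 in Matrigel-only and *Col2a1* at 0 in Palo. Cells outside that gate with a UMI of *Pi16*, a marker of fibroblast progenitors, were 55.3%, 11.4% and 31.1% of stromal cells. The 10 macrophage markers summed to 1073, 499 and 745 CPM in stromal cells, and the 10 neutrophil markers to 29.4, 92.6 and 8.91 CPM. The gates use no member, so levels within them were compared.

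Of the 17 members lower in Vehicle than in Matrigel-only, 3 were 2-fold lower within the *Pi16* gate (*Adam33*, *Adamts16* and *Timp2*), where 19.3% of the 731 genes lower in the class were, and 15 had the same sign there. Among the other stromal cells, outside the cartilage and *Pi16* gates, 11 of the 17 were 2-fold lower, beside 66.5% of the 731 genes. Of the 11 higher in Palo than in Vehicle, 4 were 2-fold higher in the *Pi16* gate (*Adam33*, *Adamts19*, *Mmp9* and *Mmp27*) and 8 in the other stromal cells, beside 17.8% and 77.0% of the 461 genes higher in the class. The first 2 counts and the last are close to those shares, and nothing particular to the members is read from these counts. *Adamts5* was 665, 494 and 681 CPM in the *Pi16* gate, but 385, 38.5 and 371 CPM in the other stromal cells and 16.3 CPM in the Vehicle cartilage gate. *Adamts15* was 222, 206 and 157 CPM in the *Pi16* gate and 81.0, 6.23 and 51.01 CPM in the other stromal cells. *Timp2* had its highest level in the *Pi16* gate of every library (2662, 1293 and 2099 CPM), and *Timp3* likewise (950, 826 and 723 CPM), and neither was 2-fold lower in the other stromal cells. *Mmp3* was 73.8, 71.9 and 29.4 CPM in the *Pi16* gate and 45.9, 2.08 and 25.2 CPM in the other cells, so Palo was 2-fold below Vehicle in the first and above it in the second.

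*Adamts16* lay almost wholly in the *Pi16* gate, with 98.1% of its Matrigel-only and 94.8% of its Palo stromal UMIs, but 23.4% of 47 UMIs in Vehicle. *Mmp9* was higher in Palo within both gates, at 12.6, 13.2 and 60.3 CPM in the *Pi16* gate and 40.1, 11.9 and 107 CPM in the other cells. *Mmp13* was 32.5 CPM in the Vehicle cartilage gate, 24.0 CPM in the other Vehicle stromal cells and 9.71 CPM in the Vehicle *Pi16* gate. The Palo library had 0 *Mmp13* UMIs in its *Pi16* gate, which allows up to 0.889 CPM by the exact interval, and 1.63 CPM in the other cells. *Timp1* was highest in Vehicle in both gates, at 356, 1318 and 579 CPM in the *Pi16* gate and 985, 1525 and 1296 CPM in the other cells. Part of a difference in a whole class and part of a difference in the share of its cells cannot be told apart beyond these gates. Membership of the *Pi16* gate can itself vary with depth.

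**Figure D3:**
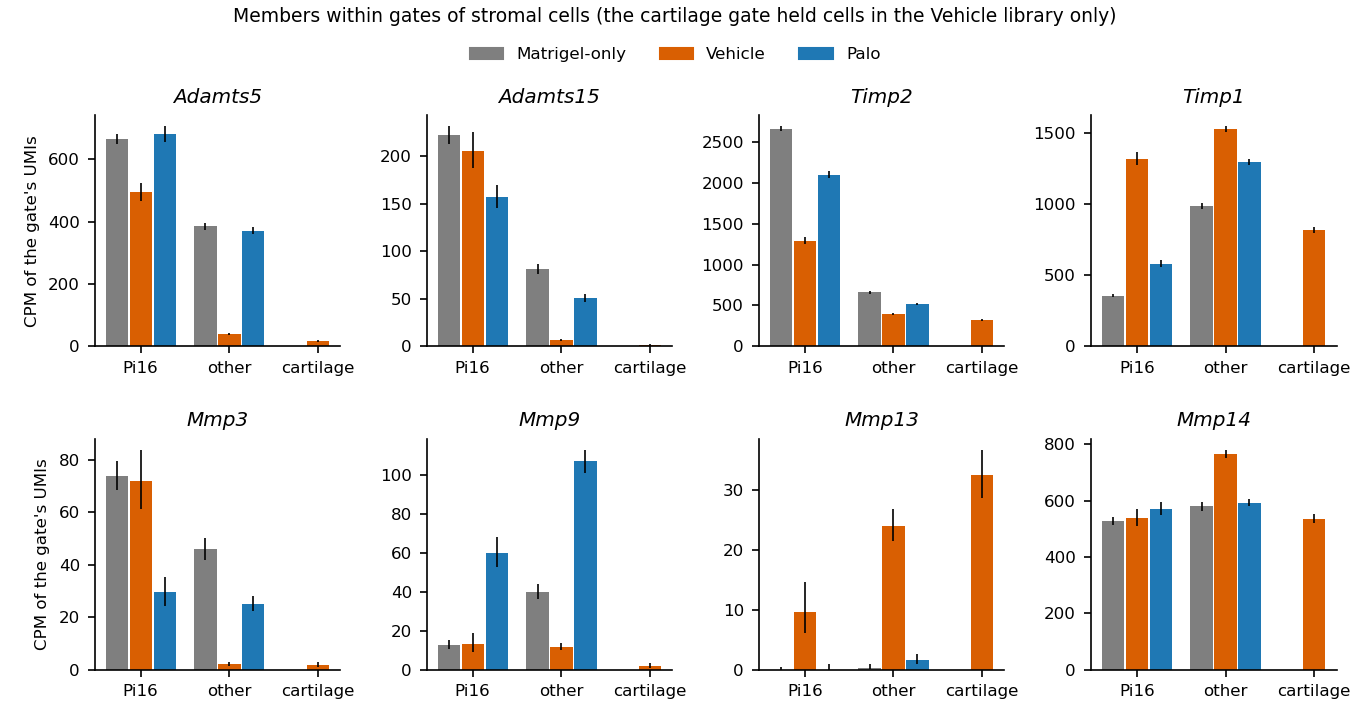
Level of 8 members in CPM within the *Pi16* gate, the other stromal cells and the cartilage gate, with bars for the libraries, exact Poisson 95% intervals and a vertical axis from 0 that differs between panels. *Adamts5* and *Adamts15* differ little between libraries in the *Pi16* gate and strongly in the other stromal cells, where Vehicle is lowest at 38.5 and 6.23 CPM.

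In macrophages 17 of the 83 members reached the minimum level, all of them also compared in stromal cells. In Vehicle against Matrigel-only 4 were higher, where 2.47% of 9549 genes were higher, and 0 were lower (1.17% of all genes). In Palo against Vehicle 0 were higher (0.880%) and 4 were lower (3.0%). In Palo against Matrigel-only 1 was higher (0.408%) and 1 was lower (0.639%). The medians over the members were -0.03, -0.38 and -0.22 in that order, and over all genes 0.00, -0.14 and -0.13. Ratios of the Palo macrophages over those of either other library are thus shifted down by about the all-gene medians. With TMM scaling, which removes that shift, 1.40% of all genes were higher and 2.14% lower in Palo than in Vehicle, and 0.649% higher and 0.387% lower in Palo than in Matrigel-only.

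*Mmp14* had the largest difference, at 8.15 CPM in Matrigel-only, 149 CPM in Vehicle and 11.9 CPM in Palo macrophages. Vehicle was 18.3-fold above Matrigel-only (15.6 to 21.5) and 12.5-fold above Palo (11.1 to 14.1). The share of thinned macrophages with a UMI was 1.22%, 17.7% and 1.62%, and no 10 cells held more than 15.7% of the UMIs in any library. The T and natural killer (T/NK) cells of the Vehicle library, which should lack the gene, had 5 *Mmp14* UMIs, a level of 7.78 CPM (2.53 to 18.2) and a thinned share of 1.72%, at a median depth of 2045 UMIs against 3655 in the macrophages. In these T/NK cells the 6 mast and basophil markers summed to 866 CPM and 3 keratinocyte markers to 445 CPM. The class was thus not free of transcripts of other cell types. *Timp1* was 11.98, 125 and 32.4 CPM, 10.4-fold higher in Vehicle than in Matrigel-only (9.12 to 11.97), and was the only member called higher in Palo than in Matrigel-only. T/NK cells of the Vehicle library had 21.8 CPM of *Timp1* (11.9 to 36.5).

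*Mmp12*, which cuts elastin, was 164 CPM in Matrigel-only, 432 CPM in Vehicle and 306 CPM in Palo macrophages, 2.63-fold higher in Vehicle than in Matrigel-only. The thinned share of positive cells was 7.06%, 7.58% and 10.1%, so the higher Vehicle level came with a similar share of cells, and 35.7% of its UMIs lay in 10 cells. Cells with a UMI of *Itgax*, *Dcstamp* or *Ear2* were 22.1%, 17.8% and 29.6% of macrophages and held 94.98% to 96.6% of the *Mmp12* UMIs, at 539, 1480 and 758 CPM. *Adam8*, a sheddase of leukocytes, was 95.6, 250 and 122 CPM, 2.61-fold higher in Vehicle than in Matrigel-only and 2.04-fold higher than in Palo. *Mmp9* had another order, 31.7 CPM in Matrigel-only, 18.1 CPM in Vehicle and 5.72 CPM in Palo, and was 5.55-fold lower in Palo than in Matrigel-only (4.65 to 6.64). The Palo calls of *Adam8* and *Mmp9* against Vehicle missed the limit under TMM and median-of-ratios scaling, at log2 ratios of -0.81 and -0.98 under TMM, and each stayed at 2-fold in 8 of 14 alternatives. Palo held the highest *Mmp9* level of the 3 libraries in stromal cells and the lowest in macrophages.

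The remaining macrophage members missed the limit in every comparison once 5 CPM was added. *Timp2* had its highest level in Matrigel-only (799, 493 and 632 CPM) and made up 98.0%, 79.3% and 94.6% of macrophage *Timp* UMIs. The ADAM sheddases *Adam10* (84.2, 88.7 and 82.8 CPM), *Adam17* (115, 137 and 98.0 CPM), *Adam15* (274, 244 and 227 CPM) and *Adam9* (85.2, 87.3 and 75.8 CPM) were nearly level. *Mmp19* was 70.6, 69.2 and 52.1 CPM. *Mmp2* was 10.8, 13.2 and 5.87 CPM in macrophages, where the sum of the 5 genes that define stromal cells was 500, 547 and 342 CPM. In T/NK cells that sum was 619, 557 and 289 CPM, about the same as in macrophages.

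**Figure D4:**
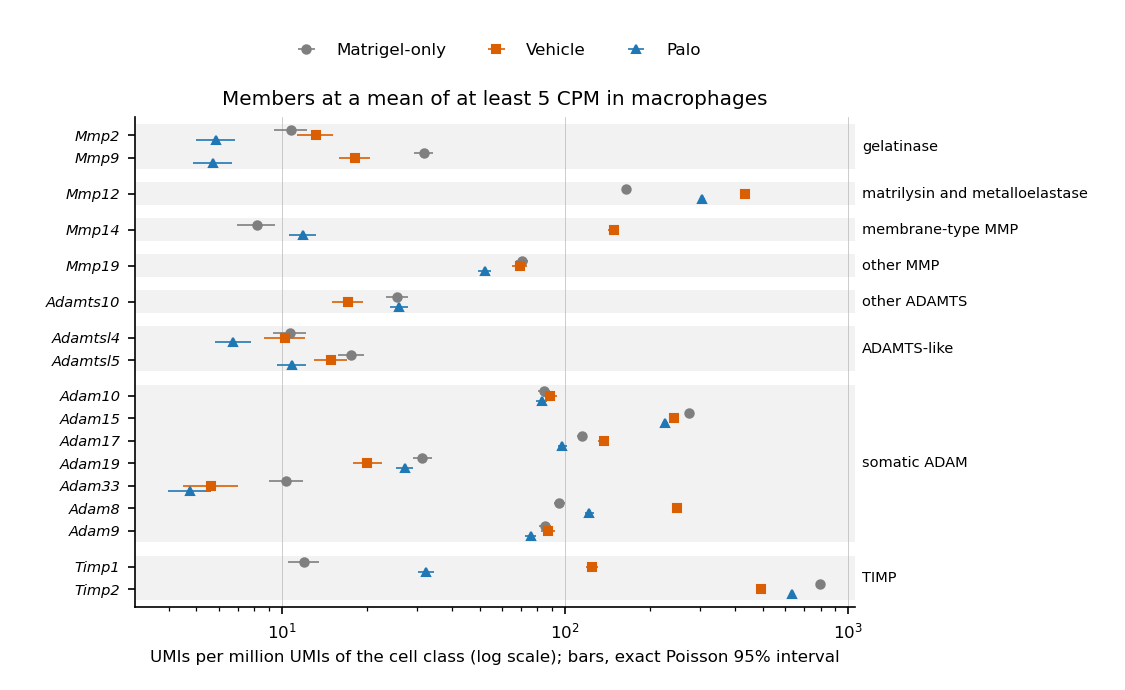
Level of the 17 members compared in macrophages, in CPM of all macrophage UMIs on a log axis, with 1 point for each library and exact Poisson 95% intervals. The Vehicle squares of *Mmp14* (149 CPM) and *Timp1* (125 CPM) stand apart from the other libraries, and *Mmp9* is lowest in Palo (5.72 CPM).

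Within gates of macrophages *Mmp14* was higher in Vehicle in every one, at 3.90, 127 and 4.96 CPM in cells with *Itgax*, *Dcstamp* or *Ear2*, 10.0, 166 and 18.9 CPM in cells with *Stab1* or *Ms4a7* and without those, and 9.36, 118 and 7.21 CPM in the rest. *Timp1* was 10.2, 175 and 23.3 CPM in the first of these gates and 12.1, 84.4 and 43.7 CPM in the second. *Adam8* was 225, 405 and 224 CPM in the first and 29.7, 170 and 47.4 CPM in the second. *Mmp12* was 3.58, 15.5 and 5.07 CPM in the second, 2-fold higher in Vehicle as in the first, and 50.8, 45.7 and 57.7 CPM in the rest, where Vehicle was not the highest.

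Markers of other cell types also differed between the macrophages of the 3 libraries, and their part in these levels was not tested. The 6 endothelial markers summed to 10.6, 56.2 and 7.32 CPM (*Emcn* at 0 in Matrigel-only), the 7 chondrocyte markers to 0.589, 45.9 and 0.401 CPM (*Acan* and *Col2a1* at 0 in the libraries without cartilage cells), the 10 neutrophil markers to 68.8, 212 and 65.0 CPM (*Stfa2l1* at 0 in all), the 6 dendritic markers to 57.1, 149 and 65.3 CPM, the 8 T/NK markers to 13.2, 91.8 and 24.6 CPM and the 6 mast and basophil markers to 0.835, 20.97 and 0.619 CPM. The 12 stromal markers summed to 605, 680 and 403 CPM. In the 5576, 3046 and 5612 macrophages with at most 0.2% of UMIs from the 5 stromal genes *Mmp14* was 7.49, 147 and 11.7 CPM and *Timp1* 11.6, 125 and 32.2 CPM. This limit kept most macrophages of each library, and the part of stromal transcripts in these levels was not tested.

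Few macrophages carried the *Mmp9* of the Vehicle library, where 18 cells had at least 3 UMIs and 10 cells held 67.7% of the total. The cells with UMIs of both *Acp5* and *Atp6v0d2*, genes known from osteoclasts, were then set apart, a gate chosen after these values were seen. It held 9 Matrigel-only, 24 Vehicle and 33 Palo macrophages, with a median of 2865, 10738 and 5506 UMIs. The 24 Vehicle cells had 49.2% of the *Mmp9* UMIs of all Vehicle macrophages, at 446 CPM (372 to 531), where the other Vehicle macrophages had 9.39 CPM. They also had 76.4% of the *Ctsk* UMIs (cathepsin K, a collagen-cutting protease of osteoclasts), at 1727 CPM, and *Mmp14* at 474 CPM. The 33 Palo cells had *Mmp9* at 20.9 CPM, *Ctsk* at 5.23 CPM and *Mmp14* at 47.1 CPM. *Mmp12* was higher in the gate than in the other macrophages of every library. It was 469 against 164 CPM in Matrigel-only, 928 against 422 CPM in Vehicle and 2364 against 291 CPM in Palo. *Nfatc1* was 523 CPM in the 24 Vehicle cells against 41.4 CPM in the other Vehicle macrophages, and *Ocstamp* 73.2 against 16.1 CPM. In the 33 Palo cells *Nfatc1* was 26.2 CPM against 32.1 CPM in the other Palo macrophages, and *Ocstamp* 47.1 against 2.24 CPM. *Calcr*, the calcitonin receptor of mature osteoclasts, had 0 UMIs in the gate of every library and was at 0 CPM in the other macrophages too.

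Neutrophils were described in the Vehicle library, since the other libraries held 2 and 10 of them. The 59 Vehicle neutrophils had a median of 643 UMIs and 43074 UMIs in all. Their *Mmp9*, stored in neutrophil granules as gelatinase B, was at 2089 CPM (1680 to 2568), with 90 UMIs in 44 of 59 cells, against 8.69 CPM in stromal cells and 18.1 CPM in macrophages of that library. The 10 Palo neutrophils had 11 *Mmp9* UMIs, 939 CPM (469 to 1680). *Adam8* was at 534 CPM (338 to 801) in the Vehicle neutrophils, *Mmp8* at 302 CPM (161 to 516), *Adam19* at 186 CPM (80.2 to 366) and *Adam17* at 116 CPM (37.7 to 271). *Timp1* and *Timp2* had 3 UMIs each, 69.6 CPM (14.4 to 204). The last 4 of these levels rest on 3 to 8 UMIs.

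The source of a transcript therefore differed by member and by library. Stromal cells held 44.2% of the *Mmp9* UMIs in the Matrigel-only library, 35.0% in Vehicle and 89.2% in Palo, and the 59 Vehicle neutrophils held 15.4%. Macrophages held 1.47% of the *Mmp14* UMIs in Matrigel-only, 11.8% in Vehicle against 3.38% in Palo. For *Timp2* the macrophage share was 32.8%, 39.0% and 53.6%. These shares depend on the number of cells of each class in a library as well as on their levels.

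**Figure D5:**
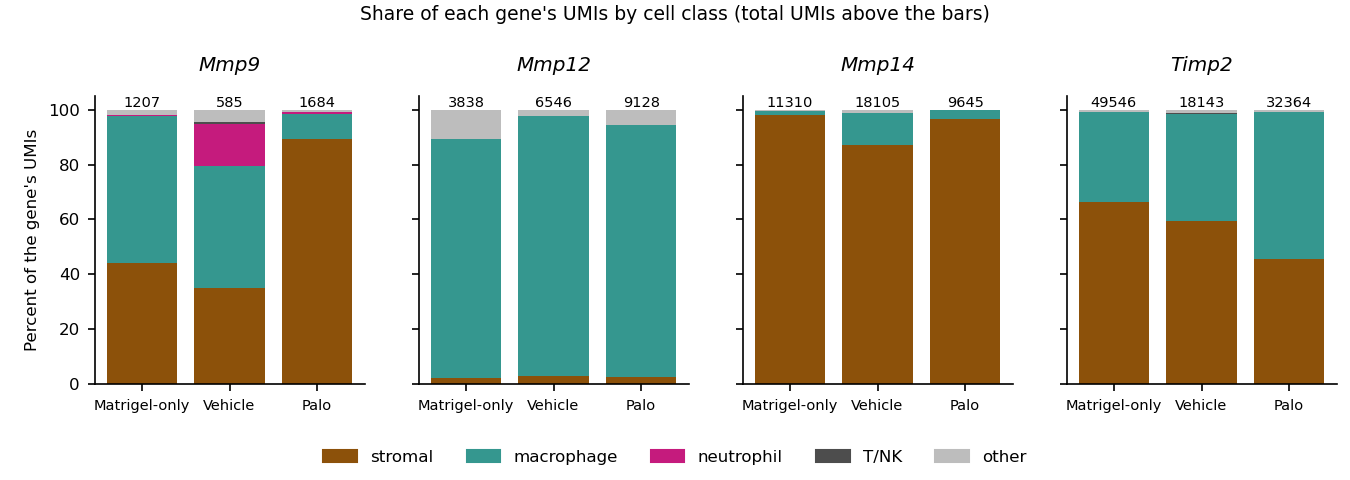
Percent of the UMIs of 4 members that lay in each cell class (stacked colours) in the 3 libraries, with the total UMIs of the gene above each bar. Stromal cells held 89.2% of the *Mmp9* UMIs in Palo and 35.0% in Vehicle, while *Mmp12* lay in macrophages in every library.

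Other extracellular proteases and inhibitors were read beside the members as 4 lists with 48 genes. Of all genes compared in stromal cells, 7.09% were lower and 3.35% higher in Vehicle than in Matrigel-only. In Palo against Vehicle 4.47% were higher and 3.28% lower. In the plasminogen system, where *Plau* and *Plat* activate plasminogen and serpins inhibit them, 6 of 8 genes were compared in stromal cells, with 2 lower in Vehicle than in Matrigel-only (*Plau* at 7.12 and 27.1 CPM, *Plat* at 96.0 and 306 CPM) and 1 higher (*Serpine2*, an inhibitor of both, at 255 and 58.3 CPM). Against Vehicle, Palo had *Plat* (253 CPM) and *Serpinb2* (8.33, 3.98 and 27.5 CPM) higher and *Serpine2* (63.4 CPM) lower. Of 12 cathepsins and cystatins 1 was lower in Vehicle stromal cells (*Ctsl*, 781 CPM in Matrigel-only, 209 CPM in Vehicle and 551 CPM in Palo), and it was the only 1 higher in Palo than in Vehicle. Of 3 procollagen C-proteinases and enhancers compared, none passed 2-fold in Vehicle against Matrigel-only, and *Pcolce2* was lower in Palo (132, 169 and 50.2 CPM).

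Among 13 other surface and secreted proteases and inhibitors compared in stromal cells, 6 were lower and 1 higher in Vehicle than in Matrigel-only. The 6 were *Htra3* (1522, 222 and 815 CPM), *Dpp4* (212, 12.5 and 121 CPM), *Fap* (125, 24.7 and 83.5 CPM), *Prss23* (729, 195 and 626 CPM), *Pcsk6* (61.4, 8.82 and 43.9 CPM) and *Reck*, a membrane inhibitor of MMPs (55.5, 10.9 and 25.8 CPM). All of these but *Reck* were called higher in Palo than in Vehicle. The inhibitor *Slpi* was the reverse, at 1.30 CPM in Matrigel-only, 214 CPM in Vehicle and 1.52 CPM in Palo. In macrophages *Ctsk* was 4.37, 45.2 and 3.68 CPM, and *Htra3* was 18.5, 60.6 and 13.4 CPM. *Slpi* in macrophages was highest in Palo (2.50, 13.0 and 39.9 CPM). *Serpina3n* (213, 236 and 97.5 CPM) was lower in Palo stromal cells than in both other libraries.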

How the data were processed

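Single-cell RNA was measured in 3 droplet libraries, 1 for each group, and groups were taken from the sample labels. The submitters' processing notes name Cell Ranger 3.0.2, Seurat 3 and the mm10 build, and the authors deposited UMI counts for each gene and barcode with no normalization. The study gives several ectopic masses for each group, which is 1 library here, and cells carry no label of their mass or mouse.

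Cells with 200 to 6000 genes and at most 5% mitochondrial UMIs were kept. Doublets were limited only by the gene maximum. Scrublet (scanpy 1.11.5) called 1, 3 and 0 cells at its own threshold and was not taken as working, so an alternative left out the cells with the highest scores at 0.8% for every 1000 cells (609, 240 and 426). Classes were set by the gene rules in the report. Neutrophils, outside the stromal class, had at least 1% of UMIs from *S100a8* and *S100a9* and a UMI of *Retnlg*, *Csf3r* or *Cxcr2*. That rule was made for this work. T/NK cells, outside the other classes, had at least 2 UMIs in sum of *Cd3d*, *Cd3e*, *Cd3g*, *Trbc2* and *Nkg7*. Counts were summed over the cells of a class and scaled to CPM, and 35 symbols carried by more than 1 gene were kept apart by gene identifier. Calls and log2 ratios were computed with 5 CPM added, for genes with a mean of at least 5 CPM over the libraries. Folds printed as the size of a gene's difference, with or without an interval, are ratios of CPM without the addition. Since each group was 1 library, sizes were described and nothing was tested. Intervals are exact Poisson for levels, conditional binomial for folds and Clopper-Pearson for shares, at 95%, and cover counting error only. Thinning depths were the tenth percentile of UMIs, rounded down to a multiple of 100.

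Named members had a mean of at least 50 CPM in stromal cells or macrophages, at least 50 CPM in Vehicle neutrophils, or a call in any comparison, together with all *Timp* genes. Others named were chosen after their values were seen, as were the promoters printed, the removal of the richest cells and the *Acp5* and *Atp6v0d2* gate. The members and lists were chosen with earlier results of these data known. Poisson counts were simulated for 10342 genes of the Vehicle and Matrigel-only stromal cells. Of 188 genes changed by 4-fold 94.1% were called, with 0% of unchanged genes, and 96.0% of intervals held the true ratio. The simulation had no variation between cells or mice and the intervals rest on the same Poisson model, so it checks the computation only. Promoters and motifs came from RefSeq (GRCm38.p6), and gene positions from an mm10 annotation. Protein sequences were not used here. A withheld item among the other protease lists is not reported here. Python 3.11.15, numpy 2.4.6, scipy 1.17.1, pandas 2.3.3, matplotlib 3.10.9, R 4.3.3 and edgeR 4.0.16 (TMM factors only) were used.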

Additional observations from a re-analysis of the deposited data

Results flagged for a closer look

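*Mmp9* had opposite directions in the 2 main cell classes. In Palo against Vehicle its log2 ratio, with 5 CPM added, was 2.87 in stromal cells and -1.11 in macrophages, and in Palo against Matrigel-only it was 1.66 and -1.78. Few cells carried the Vehicle macrophage level, which was 18.1 CPM against 5.72 CPM in Palo and, without the 10 richest cells of each library, 5.90 against 3.98 CPM. The 24 Vehicle macrophages with *Acp5* and *Atp6v0d2* held 49.2% of it. The macrophage ratio of Palo against Vehicle was 2-fold in 8 of 14 alternatives and ranged from -3.35 to -0.38, while that of Palo against Matrigel-only was 2-fold in all 14. The difference between the classes was not tested, since each group was 1 library.

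*Mmp14* and *Timp1* were also high in Vehicle cells outside every class named in the report, of which there were 761 in the Matrigel-only library, 550 for Vehicle and 382 for Palo. *Mmp14* was at 125 CPM there in Vehicle, against 19.4 CPM in Matrigel-only and 11.3 CPM in Palo. *Timp1* was at 184 CPM in Vehicle, against 14.4 and 40.2 CPM. In these cells the endothelial markers summed to 17.7, 420.0 and 20.9 CPM, the mast and basophil markers to 40.5, 1098 and 43.4 CPM, the neutrophil markers to 98.6, 655 and 75.6 CPM and the chondrocyte markers to 0.554, 457 and 1.61 CPM. Their part in the 2 levels was not tested.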

How the results depend on the processing

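Over 15 alternatives in stromal cells, the number of members called was 12 to 22 in Vehicle against Matrigel-only (19 as reported), 9 to 15 in Palo against Vehicle (12) and 2 to 5 in Palo against Matrigel-only (4). Without subtraction of the T/NK level, 2.002% to 4.18% of all stromal genes were higher and 3.83% to 9.24% lower in the first comparison. For the second, 2.36% to 6.59% were higher and 1.997% to 4.26% lower. For the third, 0.147% to 0.592% were higher and 0.5005% to 1.71% lower. Over 14 alternatives in macrophages the number of members called was 3 to 6 (4), 2 to 6 (4) and 1 to 4 (2) in the same order. There, again without the T/NK subtraction, 1.47% to 3.47% of all genes were higher and 0.656% to 2.23% lower in the first comparison. In the second 0.479% to 1.57% were higher and 1.74% to 4.22% lower. In the third 0.231% to 0.733% were higher and 0.376% to 1.30% lower. Leaving out the *Pi16* gate gave 12 stromal members in Vehicle against Matrigel-only, where 2.81% of all genes were higher and 6.16% lower. It gave 2 in Palo against Matrigel-only, where 0.264% of all genes were higher and 0.898% lower. It also turned the *Adamts16* log2 ratio in Vehicle against Matrigel-only from -2.05 to 0.19. A minimum of 20 CPM gave 2 stromal members and 1 macrophage member in Palo against Matrigel-only, with fewer genes compared. TMM and median-of-ratios scaling each gave 2 macrophage members in Palo against Vehicle. Under them 1.40% and 1.37% of all genes were higher and 2.14% and 2.23% lower. Subtracting the T/NK level gave 4 macrophage members in Palo against Matrigel-only, where the cause was not tested. With that subtraction 16.0% of all macrophage genes were higher and 22.1% lower in Palo against Matrigel-only. In stromal cells it gave 18.9% higher and 27.8% lower in Vehicle against Matrigel-only, and 24.0% and 16.6% in Palo against Vehicle. Member counts under this alternative therefore stand beside much larger shares of all genes. Of 45 called gene ratios, 26 stayed at 2-fold or more under every alternative run. No paired analysis was possible because each group was 1 library and the labels give no replicate numbers, and no replicate could be left out. Depth limits the neutrophil levels most, with 43074 UMIs in the Vehicle class.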
